A study of Mus musculus with 6 samples.

Results

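The genes described here are 35 genes of glycolysis and of the response to low oxygen, chosen by name from knowledge of the pathways. Earlier results of these data were known when they were chosen, so a count of them beside all genes is a description and not a test. Each was read on the arrays through the probes whose gene symbol was exactly that of the gene, with the log2 values of several probes averaged. Of the 35 genes, 31 were measured and 4 (Gpi1, Aldoa, Eno1 and Ankrd37) had no probe with a single symbol and were not analysed here. The 31 are a small part of the 22180 genes that the arrays measured in the same way.

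The cells were mouse embryonic stem cells (mESC) of the EB3 line, kept in N2B27 medium with LIF and BMP4, and epiblast-like cells (EpiLC) made from EB3. EpiLC had been induced for 2 days in N2B27. The inducers were Activin A at 20 ng/ml together with bFGF at 12 ng/ml, and the dishes had a serum coating, so their medium and coating differ from those of the mESC as well as their state. Each state was left untreated, given CHIR99021 at 3 µM for 24 hours, or given the same dose of CHIR99021 with PD0325901 at 1 µM for 24 hours. CHIR99021, called CHIR here, blocks the kinase GSK3, and PD0325901, called PD, blocks MEK, which lies upstream of ERK1/2. PD was never given alone, EB3 is a single line, and the labels leave out when within or after the 2 days of induction the 24 hours fell. Each of the 6 groups was 1 array (Affymetrix Mouse Gene 2.0 ST), so a difference between 2 arrays has a size and no test. A test was possible only in a limma fit of state plus treatment to all 6 arrays, whose error is the departure from additive effects and not a spread between cultures.

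Glycolysis splits glucose into pyruvate. Transporters of the Slc2a family bring glucose in, hexokinase traps it, phosphofructokinase commits it to breakdown, and lactate dehydrogenase turns pyruvate into lactate, which leaves through Slc16a transporters. Pyruvate can also enter mitochondria, where pyruvate dehydrogenase feeds it to the citric acid cycle unless Pdk kinases block that enzyme. When oxygen is low, the factor HIF escapes the EGLN prolyl hydroxylases and switches on many glycolysis genes together with genes such as Vegfa and Bnip3. Naive mESC are known to use both glycolysis and respiration, whereas primed epiblast cells are known to lean more on glycolysis.

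In the limma fit, 7 of 7 naive markers fell in EpiLC, and Esrrb read between 357 and 524 in the mESC arrays and between 21.4 and 33.7 in the EpiLC arrays. Of 6 formative genes, 2 rose in EpiLC (Pou3f1 and Zic2) and 0 fell. Untreated EpiLC were higher in each of the 6, but Dnmt3b read 1289 in mESC and 1279 in EpiLC with CHIR and 817 and 788 with CHIR and PD, and Sox3 read 89.0 and 87.2 with CHIR. Otx2 read 1025 in untreated EpiLC, 310 with CHIR and 59.0 with both inhibitors. Fgf5 read 1258 in untreated EpiLC and 770.0 with CHIR, but 39.4 with CHIR and PD, close to the 19.9 to 36.0 of the mESC, so this marker was low in the EpiLC given both inhibitors. The Wnt feedback gene Axin2 stood at 182 and 165 in untreated mESC and EpiLC and at 368 and 307 with CHIR. The ERK feedback gene Spry4 stood at 608 and 338 with CHIR and at 36.2 and 22.3 once PD was added. The summed intensity of 5 mesoderm markers was 10471.9 in EpiLC with CHIR and between 227 and 705 on the other arrays, so that array carries a strong mesoderm signal. The summed intensity of 8 fibroblast markers was 601 to 800.3 in mESC and 705 to 1495 in EpiLC. A level here is a linear intensity with a lowest value of 16, and the array medians lay between 60.5 and 65.2. In RNA from whole cultures, fewer cells of a type and less RNA per cell cannot be told apart.

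EpiLC and mESC differed in a few members, in both directions. Across the 3 treatments, 4 members rose in EpiLC (Slc16a3, Vegfa, Egln1 and Pfkm) and 2 fell (Pfkp and Hk1), in the limma fit with Benjamini-Hochberg adjusted p under 0.05 over 22180 genes. Among all genes, 4.15% rose and 4.15% fell. With no moderation of the gene-wise error limma called 0 of the 6, and with a trended and robust moderation it called 8 members that rose and 2 that fell. At an unadjusted p under 0.05 the fit held 16 of the 31 members, beside 24.0% of all genes. The median member differed by 0.16 (log2, EpiLC minus mESC) and the median gene by -0.02. All 3 EpiLC arrays lay above all 3 mESC arrays for 8 members (Slc16a3, Pfkl, Pfkm, Tpi1, Pgk1, Pdk3, Egln1 and Vegfa), as for 12.4% of all genes. All 3 lay below for 4 members (Hk1, Hk2, Pfkp and Pfkfb4), as for 14.4% of all genes, so the members' count below was near the background.

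**Figure D1:**
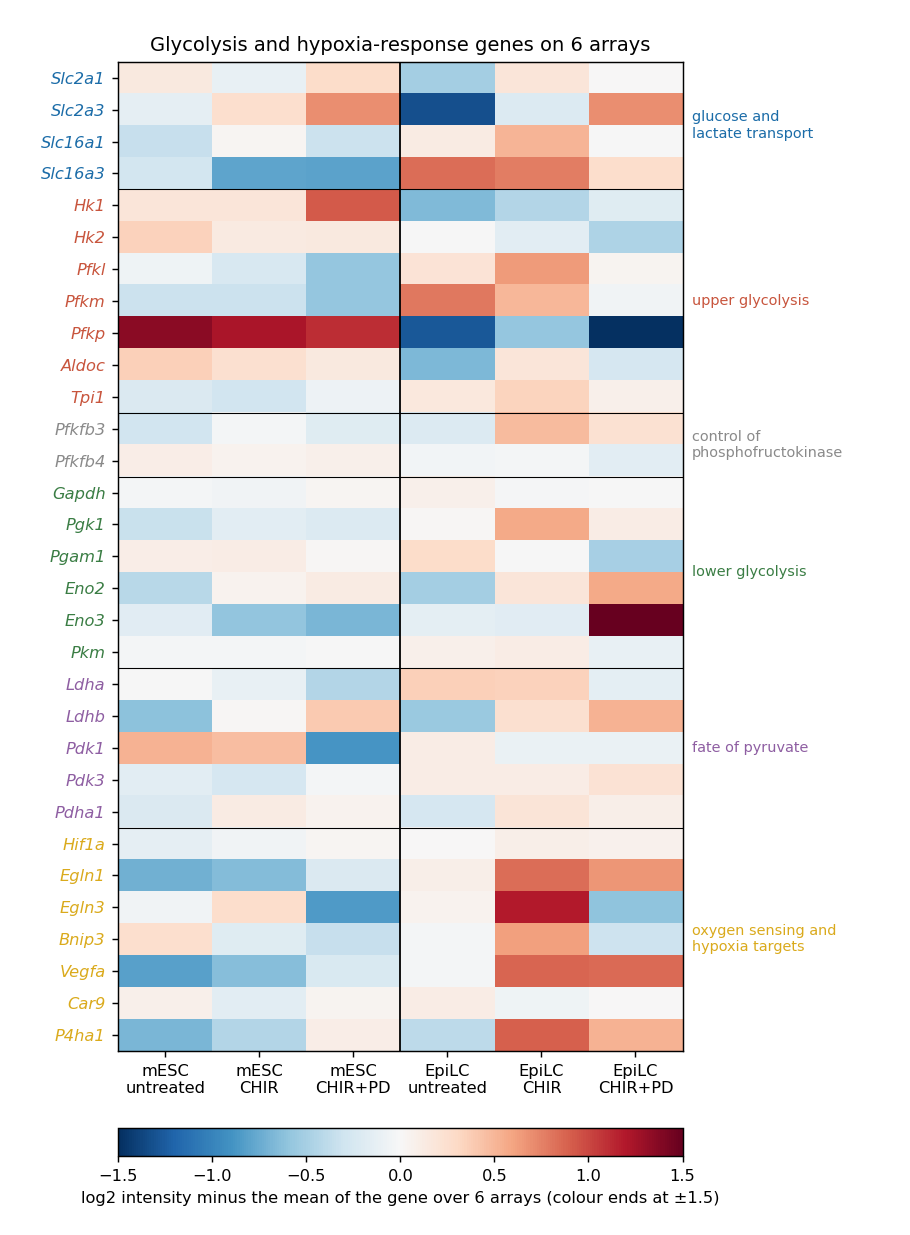
Heat map of the 31 measured members on the 6 arrays. Colour is the log2 intensity minus the mean of that gene over the arrays, with the colour range ending at -1.5 and 1.5, and genes are grouped by role. Pfkp is high in all 3 mESC arrays and low in all 3 EpiLC arrays, and Slc16a3, Vegfa and Egln1 show the opposite.

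**Figure D2:**
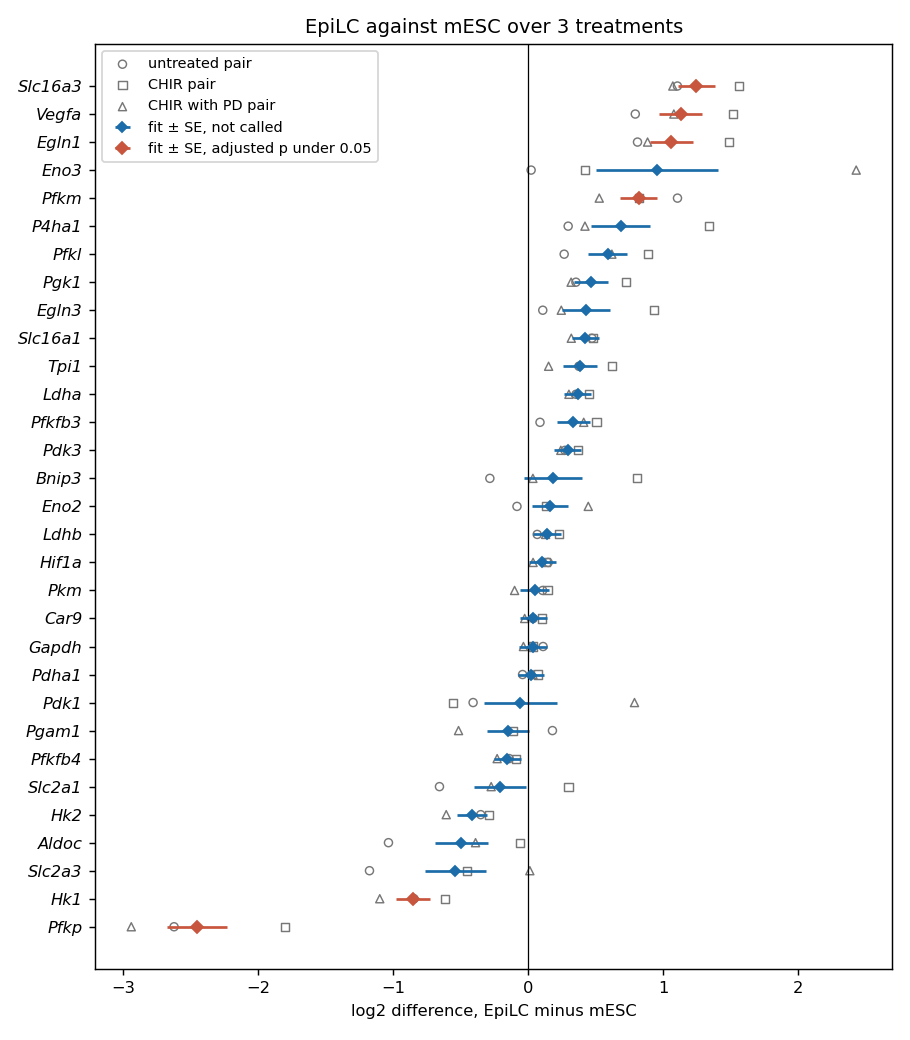
Difference of each member between EpiLC and mESC (log2), from the limma fit with its standard error, with the 3 single pairs of arrays as open markers. Red marks the 6 members past an adjusted p of 0.05, from Pfkp at -2.45 to Slc16a3 at 1.24, and blue marks the others. The 3 pairs of Eno3 lie far apart.

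The sharpest change lay among the 3 isoforms of phosphofructokinase, the enzyme of the committed step. Pfkp, the platelet isoform, read 1468, 1337 and 1238 in mESC (untreated, CHIR, CHIR with PD) and 238, 384 and 161 in EpiLC. Every EpiLC value was below every mESC value, and the limma fit gave a difference of -2.45 (SE 0.22, adjusted p = 0.00506). Pfkm, the muscle isoform, went the other way, with 133, 132 and 111 in mESC against 286, 234 and 159.5 in EpiLC. The groups of Pfkm did not overlap either, and it rose 1.76-fold (log2 0.82, SE 0.14, limma adjusted p = 0.0252). The call for Pfkm was lost without the untreated pair of arrays (limma adjusted p = 0.0732) and without the CHIR pair (0.0869), and over 12 alternative settings its adjusted p ran from 0.0171 to 0.302. Pfkl, the liver isoform, read 653, 576 and 458 in mESC and 785, 1062 and 704 in EpiLC, without overlap. Its difference of 0.59 (SE 0.14) did not pass (limma adjusted p = 0.0679). Levels of different isoforms cannot be compared on these arrays, because each probe has its own brightness.

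Hexokinase traps glucose in the cell. Hk1 read 154, 154 and 257 in mESC and 85.6, 100.2 and 119.9 in EpiLC, lower in every EpiLC array. Hk1 fell (log2 -0.86, SE 0.13, limma adjusted p = 0.0179), a call that was lost without the untreated pair (limma adjusted p = 0.0638, range over 12 alternatives 0.0133 to 0.278). Hk2, the hexokinase that HIF is known to induce, read 650.3, 560.3 and 567 in mESC and 509, 459 and 372 in EpiLC. Its values did not overlap, but the difference of -0.42 (SE 0.11) did not pass (limma adjusted p = 0.0892). In the next steps, Aldoc, an aldolase, read 198 to 359 in EpiLC and 350.0 to 406 in mESC, with overlap and no call. Tpi1, the triose phosphate isomerase, read 1481 to 1767 in EpiLC and 1152 to 1335 in mESC, without overlap and also without a call (0.38, SE 0.13, limma adjusted p = 0.14). Of the 7 measured genes of upper glycolysis, 1 rose, 2 fell and 4 did not pass, with a median of -0.42. Of all genes, 4.15% rose and 4.15% fell. Tpi1 has near-identical copies in the genome, as have Gapdh, Pgk1, Pgam1 and Ldha, so values of these genes are uncertain.

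Pfkfb3 and Pfkfb4 make fructose 2,6-bisphosphate, the strongest known activator of phosphofructokinase. Pfkfb3 read 86.3 to 103 in mESC and 91.6 to 146 in EpiLC, and Pfkfb4 read 99.0 to 102 in mESC and 85.5 to 92.9 in EpiLC. Neither passed the limma fit, with a difference of 0.33 for Pfkfb3 (SE 0.12, adjusted p = 0.175) and -0.15 for Pfkfb4 (SE 0.10, adjusted p = 0.422).

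Of the 4 transporters, 1 rose and 0 fell, beside 4.15% of all genes in each direction. Slc16a3 (MCT4), which exports lactate and is a known HIF target, read 430.2, 299 and 298 in mESC and 925, 882 and 625 in EpiLC. The lowest EpiLC array stood above the highest mESC array, and Slc16a3 rose 2.37-fold (log2 1.24, SE 0.14, limma adjusted p = 0.00745). Slc16a1 (MCT1), which carries lactate and pyruvate both ways, read 827, 1072 and 840.0 in mESC and 1146, 1493 and 1047 in EpiLC. These values overlap only through the EpiLC array with both inhibitors, and the difference of 0.42 (SE 0.10) did not pass (limma adjusted p = 0.0665, range over 12 alternatives 0.0281 to 0.338).

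The glucose transporters were not called. Slc2a1 (GLUT1), the widespread transporter, read 798, 666 and 873 in mESC and 505, 819 and 721 in EpiLC, so it was lower in untreated EpiLC but not with CHIR. Slc2a3 (GLUT3), which has a high affinity for glucose, read 1994, 2621 and 3542 in mESC and 882, 1909 and 3569 in EpiLC. The difference of Slc2a3 between the states was -1.18 untreated, -0.46 with CHIR and 0.01 with CHIR and PD, so the gap seen in untreated cells was not there under both inhibitors. The limma fit gave -0.54 for Slc2a3 (SE 0.23, adjusted p = 0.224) and -0.21 for Slc2a1 (SE 0.19, adjusted p = 0.569).

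**Figure D3:**
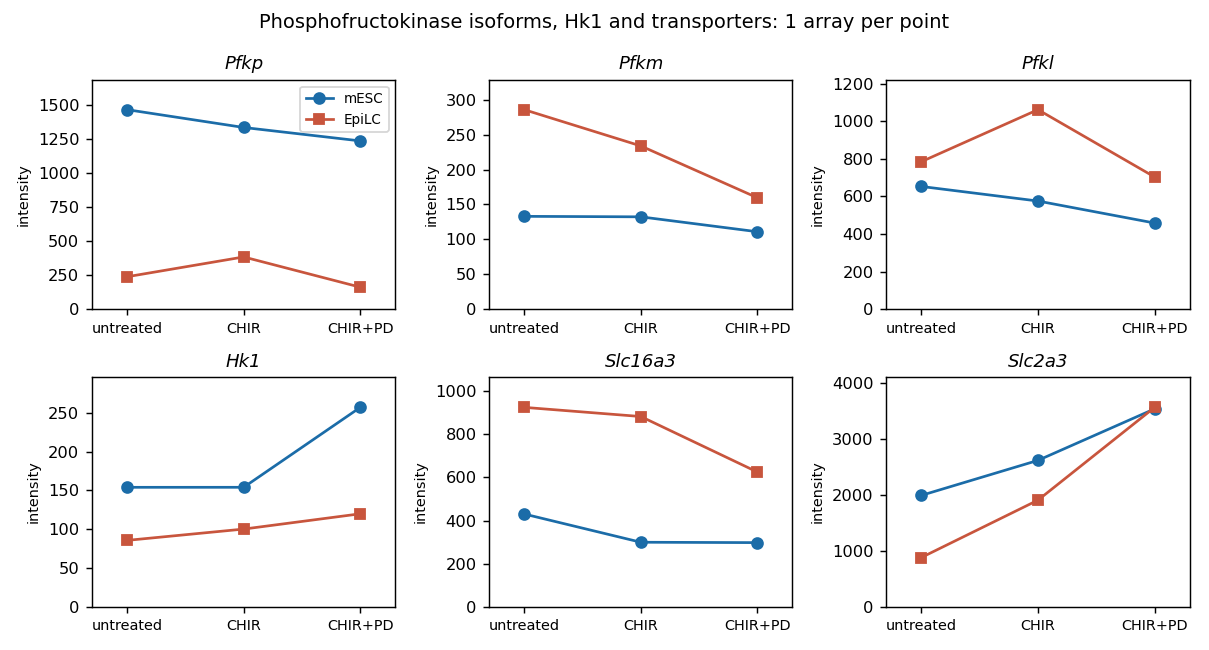
Intensity (linear axis from 0) of Pfkp, Pfkm, Pfkl, Hk1, Slc16a3 and Slc2a3 on each array, untreated, with CHIR and with CHIR and PD. Blue circles are mESC and red squares are EpiLC, 1 array each. The lines stay apart for the first 5 genes, and for Slc2a3 they meet at 3542 and 3569 under both inhibitors.

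In lower glycolysis, from Gapdh to Pkm, the fit called 0 of 6 measured genes between the states, beside 4.15% of all genes in each direction. The states did not overlap for 1 of them, Pgk1, which was higher in EpiLC, as were 12.4% of all genes. Gapdh, the dehydrogenase often used as a reference gene, read 5340.4 to 5671 in mESC and 5459 to 5866 in EpiLC, and its 3 probes each stayed close between arrays. Pkm, pyruvate kinase, read 4441 to 4517 in mESC and 4209 to 4904 in EpiLC. The limma difference was 0.03 for Gapdh (SE 0.10) and 0.05 for Pkm (SE 0.11). Pgk1, the first step that makes ATP, read 1861, 2100.1 and 2038 in mESC and 2376, 3465 and 2538 in EpiLC. Its values did not overlap, and the difference of 0.46 (SE 0.12) did not pass (limma adjusted p = 0.0854). Pgam1, a mutase, read 810.5 to 861 in mESC and 566 to 972 in EpiLC, and its lowest value was in EpiLC with both inhibitors. Its brighter probe was less reduced on that array, at -0.36 (log2) against untreated EpiLC, than the other probe at -1.20.

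Among the enolases, the neuronal isoform Eno2 read 75.5, 105 and 109.8 in mESC and 71.2, 115 and 149 in EpiLC, higher with inhibitors in both states. Eno3, the muscle isoform, read 365, 273 and 255 in mESC and 371, 364 and 1374 in EpiLC. A single array, EpiLC with CHIR and PD, set Eno3 apart from the other 5. The limma difference of Eno3 (0.96, SE 0.45, adjusted p = 0.278) therefore describes neither that array nor the others well.

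At the branch of pyruvate, 0 of 5 genes passed between the states, beside 4.15% of all genes in each direction. Ldha, which makes lactate, read 1681, 1561 and 1237 in mESC and 2146, 2128 and 1523 in EpiLC. Ldha was higher in EpiLC within each treatment, by 0.30 to 0.45, and the limma fit did not call it (0.37, SE 0.10, adjusted p = 0.0914). Ldhb, the isoform that favours pyruvate, read 338, 524 and 684 in mESC and 354, 612 and 747 in EpiLC, with overlap and a rank order set by treatment. Pdk3, a kinase that blocks pyruvate dehydrogenase, read 263 to 307 in mESC and 339 to 363 in EpiLC, without overlap (limma difference 0.29, SE 0.10, adjusted p = 0.151). Pdha1, the catalytic alpha subunit of pyruvate dehydrogenase, read 764, 969 and 921 in mESC and 742, 1016 and 943 in EpiLC, close within each treatment.

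In the oxygen-sensing group, 2 of 7 measured genes rose and 0 fell, beside 4.15% of all genes in each direction. Vegfa, the growth factor of blood vessels, read 156, 176 and 235 in mESC and 270.0, 503 and 495 in EpiLC. All EpiLC values were higher than all mESC values, and Vegfa rose 2.19-fold (log2 1.13, SE 0.16, limma adjusted p = 0.0152). Egln1 (PHD2), the main hydroxylase that marks HIF for destruction, read 193, 203 and 275 in mESC and 338, 569 and 506 in EpiLC. It also showed no overlap and rose 2.08-fold (log2 1.06, SE 0.16, limma adjusted p = 0.0186). Hif1a, the regulated HIF subunit, which is controlled mainly through its protein, read 243 to 274 in mESC and 269 to 284 in EpiLC (limma difference 0.10, SE 0.10, adjusted p = 0.589).

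The rest of the oxygen-sensing group was not called between the states. P4ha1, a collagen prolyl hydroxylase, read 126, 149 and 218 in mESC and 155, 377 and 291 in EpiLC (limma difference 0.68, SE 0.22, adjusted p = 0.128). Egln3 (PHD3), a hydroxylase that HIF itself is known to induce, read 119, 148 and 68.5 in mESC and 129, 283 and 81.2 in EpiLC. Bnip3, a mitophagy receptor, read 189, 139.9 and 126 in mESC and 155, 244 and 129 in EpiLC. Both were highest in EpiLC with CHIR, and the states overlapped. Car9, a carbonic anhydrase and a widely used hypoxia marker, read only 40.9 to 49.3 on the 6 arrays, below the median gene at 80.3, so a change at low level could not be seen.

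The single pairs of arrays give sizes within each treatment. In untreated cells, 2 of 31 members were at least 2-fold higher in EpiLC (Pfkm and Slc16a3) and 3 at least 2-fold lower (Pfkp, Slc2a3 and Aldoc), beside 1.47% and 2.3% of all genes. With CHIR, 4 were higher (Slc16a3, Vegfa, Egln1 and P4ha1) and 1 lower (Pfkp), beside 2.45% and 2.63%. With CHIR and PD, 3 were higher (Eno3, Vegfa and Slc16a3) and 2 lower (Pfkp and Hk1), beside 3.29% and 3.11%. Slc16a3 and Pfkp passed the 2-fold mark in each of the 3 pairs. The median member differed by 0.11, 0.30 and 0.15 in the 3 pairs, against 0.00, -0.02 and -0.03 for the median gene.

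Further genes of these pathways were taken from lists of known pathway members, also with earlier results of these data known. They were compared between the states, where 4.15% of all genes rose and 4.15% fell. Among 7 other genes of oxygen sensing, 2 rose and 1 fell. Epas1, which encodes HIF-2alpha, read 712, 305 and 287 in mESC and 89.9, 82.5 and 104 in EpiLC and fell in EpiLC (log2 -2.11, SE 0.29, limma adjusted p = 0.0138). Hif3a, a HIF family member, rose from 122, 102 and 97.9 in mESC to 259, 203 and 393 in EpiLC (log2 1.36, SE 0.21, limma adjusted p = 0.0208). Arnt2, a partner subunit of HIF, rose by 0.96 (SE 0.13, limma adjusted p = 0.015). All 3 encode subunits of the HIF family, of which Hif1a itself was not called.

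Of 22 other hypoxia targets, 2 rose (Stc2 and Plod2) and 2 fell (Kdm3a and Angptl4), beside 4.15% of all genes in each direction. Kdm3a, a histone demethylase that HIF is known to induce, read 1019, 831 and 870.5 in mESC and 311, 372 and 364 in EpiLC (log2 -1.38, SE 0.14, limma adjusted p = 0.00626). Angptl4, a secreted regulator of lipoprotein lipase, fell by 1.26 (SE 0.20, limma adjusted p = 0.0206), and Stc2, a secreted glycoprotein, rose by 0.82 (SE 0.16, limma adjusted p = 0.0387). Known hypoxia targets therefore stood on both sides, with Vegfa and Slc16a3 higher and Kdm3a and Angptl4 lower in EpiLC.

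Of 18 other glycolysis genes, 1 rose and 1 fell, near the 4.15% of all genes in each direction. Tigar, a phosphatase that lowers fructose 2,6-bisphosphate, read 230.2, 266 and 312 in mESC and 148, 125 and 139.9 in EpiLC (log2 -0.96, SE 0.14, limma adjusted p = 0.0161). Bpgm, which makes 2,3-bisphosphoglycerate, rose by 0.51 (SE 0.10, limma adjusted p = 0.0365). In the pentose phosphate branch 1 of 5 genes fell, Rpe, an epimerase (log2 -0.67, SE 0.11, limma adjusted p = 0.022). The limma fit called 0 of 10 genes of pyruvate entry and 0 of 16 of the citric acid cycle. At an unadjusted limma p under 0.05 there were 3 and 4 of them, near the 24.0% of all genes. With a trended and robust moderation limma called 0 of the former and 1 of the latter.

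More members were higher with CHIR in EpiLC than in mESC, by single arrays without a test. In mESC, 0 of 31 members were 2-fold higher or lower with CHIR, beside 0.185% and 0.153% of all genes. In EpiLC, 3 members were at least 2-fold higher (P4ha1, Egln3 and Slc2a3) and 0 lower, beside 1.77% and 0.929%. At 1.5-fold the EpiLC pair had 12 members higher and 0 lower, beside 5.04% and 3.72% of all genes, and the mESC pair had 1 higher and 0 lower, beside 1.46% and 0.974%. The median member differed by 0.38 in EpiLC and -0.01 in mESC, and the median gene by -0.03 and 0.00. The untreated and CHIR arrays of EpiLC were 1 culture each, so whether the states differ in their response was not tested.

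The 12 members at 1.5-fold in EpiLC came from several roles. In transport, Slc2a3 went from 882 to 1909 and Slc2a1 from 505 to 819. In glycolysis, Aldoc went from 198 to 359, Pfkp from 238 to 384, Pfkfb3 from 91.6 to 146 and Eno2 from 71.2 to 115. Ldhb went from 354 to 612, and its response in mESC (from 338 to 524) was nearly as large, with differences of 0.79 and 0.63. It was the only member at 1.5-fold in both states.

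The remaining 5 of the 12 belong to oxygen sensing. P4ha1 went from 155 to 377, Egln3 from 129 to 283, Vegfa from 270.0 to 503, Egln1 from 338 to 569 and Bnip3 from 155 to 244 in EpiLC. In mESC the same genes went from 126 to 149, from 119 to 148, from 156 to 176, from 193 to 203 and from 189 to 139.9, so none reached 1.5-fold there and Bnip3 was lower. The group's median difference was 0.75 in EpiLC and 0.09 in mESC, over 7 genes. Hif1a (269 and 284) and Car9 (49.3 and 43.8) were the others, with little difference in EpiLC.

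On the same EpiLC array the mesoderm markers were high, with Msgn1 at 3768 against 65.2 untreated and Mixl1 at 3378 against 179. In EpiLC with both inhibitors these were back at 51.7 and 172. Their part in the higher readings of the hypoxia genes was not tested. Of the other hypoxia targets, 4 of 22 were at least 1.5-fold higher with CHIR in EpiLC (Ddit4, Gys1, Pfkfb2 and Bhlhe40) and 2 lower (Angptl4 and Tmem45a), beside 5.04% and 3.72% of all genes, with a median of 0.25. In mESC 0 of these 22 were 1.5-fold higher or lower. Ddit4, an inhibitor of mTORC1 that stress induces, went from 314 to 2255 in EpiLC and stayed at 2286 when PD was added. Gys1, the muscle glycogen synthase, went from 175 to 387.

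**Figure D4:**
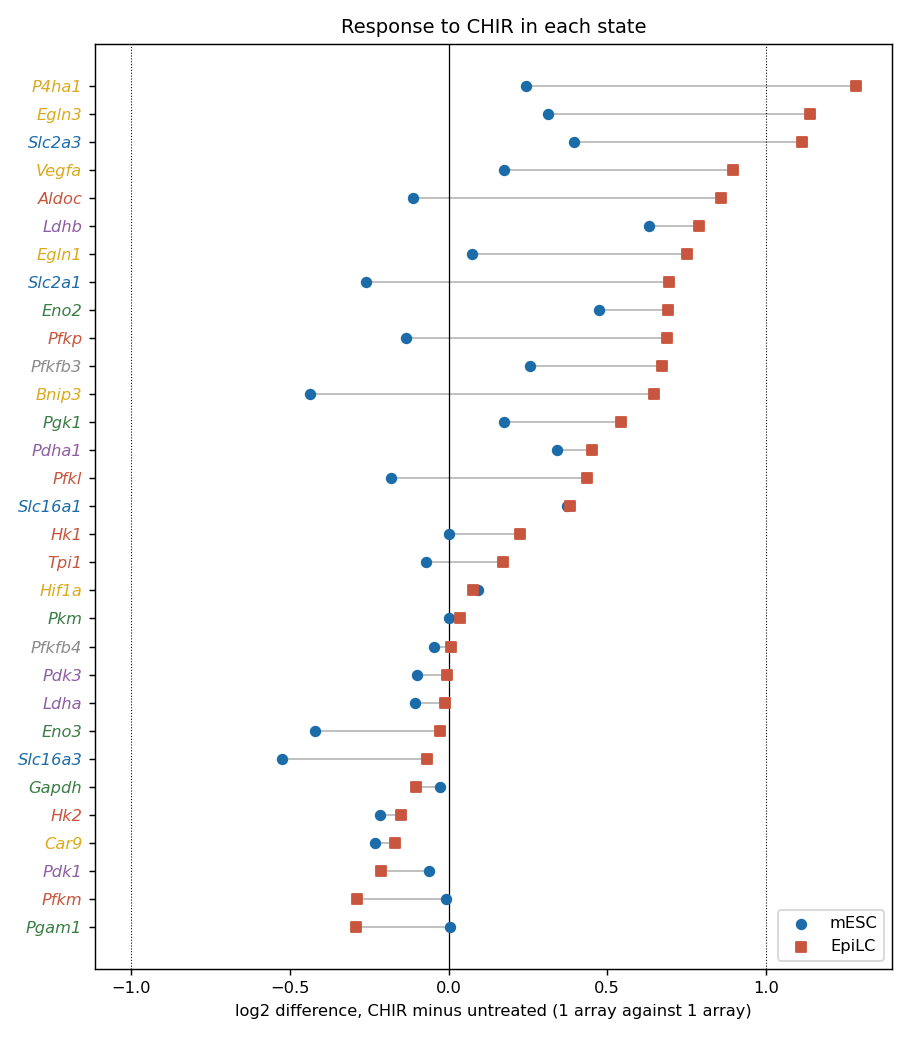
Difference of each member with CHIR against untreated (log2) in mESC and in EpiLC, 1 pair of arrays each, joined by a line, with dotted lines at -1 and 1. In EpiLC P4ha1 (1.29), Egln3 (1.14) and Slc2a3 (1.11) lie beyond 1, and in mESC no member does.

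The promoters of the hypoxia genes were examined for the core sequence that HIF is known to bind, ACGTG or GCGTG, on both strands. Sequences are those of RefSeq on GRCm38.p6, each 300 bases long on the strand of the gene, from 250 bases before the annotated start to 50 after it. Those of the 5 oxygen-sensing genes at least 1.5-fold higher with CHIR in EpiLC are shown, with Ldha and Pdk1, which were not, beside them. The most upstream start was taken where a gene has several. Windows of the other members among the 12 at 1.5-fold are not shown. Capitals mark both motifs and their reverse complements. The motif ACGTG lies within the longer E-box motif CACGTG, which reads the same on both strands and so counts on each.
P4ha1, chr10:59323046-59323345, plus strand: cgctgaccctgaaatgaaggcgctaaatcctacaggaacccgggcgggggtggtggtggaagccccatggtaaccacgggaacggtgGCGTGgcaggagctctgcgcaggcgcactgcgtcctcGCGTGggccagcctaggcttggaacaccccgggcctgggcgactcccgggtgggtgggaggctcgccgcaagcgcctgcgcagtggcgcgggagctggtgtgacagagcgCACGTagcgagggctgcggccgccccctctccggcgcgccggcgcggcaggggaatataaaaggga
Egln3, chr12:54203825-54204124, minus strand: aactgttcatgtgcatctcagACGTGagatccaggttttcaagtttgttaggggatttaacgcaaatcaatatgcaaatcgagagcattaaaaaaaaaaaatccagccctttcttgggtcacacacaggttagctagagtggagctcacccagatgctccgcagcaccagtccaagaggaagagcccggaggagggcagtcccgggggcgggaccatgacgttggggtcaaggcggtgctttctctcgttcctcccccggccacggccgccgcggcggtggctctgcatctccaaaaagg
Egln1, chr8:124949205-124949504, minus strand: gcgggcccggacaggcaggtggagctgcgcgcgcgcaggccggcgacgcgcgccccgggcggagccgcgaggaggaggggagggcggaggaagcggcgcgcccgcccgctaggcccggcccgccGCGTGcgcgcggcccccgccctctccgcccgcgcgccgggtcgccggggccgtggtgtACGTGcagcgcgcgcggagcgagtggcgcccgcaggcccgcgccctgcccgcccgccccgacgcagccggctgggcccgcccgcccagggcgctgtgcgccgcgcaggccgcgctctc
Vegfa, chr17:46032328-46032627, minus strand: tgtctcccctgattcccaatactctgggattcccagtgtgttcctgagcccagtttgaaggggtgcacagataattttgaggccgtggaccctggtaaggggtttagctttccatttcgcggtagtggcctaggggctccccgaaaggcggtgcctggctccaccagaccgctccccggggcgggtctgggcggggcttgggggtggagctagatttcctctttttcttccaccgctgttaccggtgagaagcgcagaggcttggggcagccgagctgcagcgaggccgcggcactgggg
Bnip3, chr7:138909457-138909756, minus strand: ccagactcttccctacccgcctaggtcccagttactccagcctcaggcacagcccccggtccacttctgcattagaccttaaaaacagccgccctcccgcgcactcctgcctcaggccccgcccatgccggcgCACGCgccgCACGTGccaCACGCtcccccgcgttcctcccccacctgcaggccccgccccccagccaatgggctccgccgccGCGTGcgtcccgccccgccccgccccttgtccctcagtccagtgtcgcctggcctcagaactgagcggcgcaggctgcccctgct
Ldha, chr7:46845554-46845853, plus strand: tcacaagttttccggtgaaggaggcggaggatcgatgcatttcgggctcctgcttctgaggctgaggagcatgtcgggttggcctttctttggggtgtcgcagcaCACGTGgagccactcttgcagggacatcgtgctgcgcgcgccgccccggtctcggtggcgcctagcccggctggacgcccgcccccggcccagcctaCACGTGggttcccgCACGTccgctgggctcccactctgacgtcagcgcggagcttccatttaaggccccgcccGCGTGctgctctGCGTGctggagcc
Pdk1, chr2:71872974-71873273, plus strand: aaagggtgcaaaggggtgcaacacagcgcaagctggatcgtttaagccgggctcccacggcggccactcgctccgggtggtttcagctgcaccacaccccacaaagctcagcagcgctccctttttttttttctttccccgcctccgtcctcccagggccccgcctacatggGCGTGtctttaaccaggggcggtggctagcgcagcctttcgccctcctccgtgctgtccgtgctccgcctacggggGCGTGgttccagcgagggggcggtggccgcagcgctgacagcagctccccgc

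P4ha1 holds 1 ACGTG and 2 GCGTG, Egln3 holds 1 ACGTG, and Egln1 holds 1 of each in a window of 86.0% GC. Bnip3 holds ACGTG on both strands within 1 E-box and 3 GCGTG. Vegfa holds neither in the window shown, and 1 of each in the window of its other start (chr17:46025114-46025413). Ldha, with the densest set, holds 5 ACGTG, 4 of them from 2 E-boxes, and 2 GCGTG, and Pdk1 holds 2 GCGTG. Among the windows shown, the letters occur in the oxygen-sensing genes that were higher with CHIR in EpiLC, other than Vegfa. They also occur in Ldha and Pdk1, which were not higher. Whether the letters go with the response to CHIR over all members was not tested. A match is a string of letters and not a shown binding site.

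Across the 34 members with an entry there were 48 windows, and ACGTG occurred in 26 of them (54.2%) and GCGTG in 28 (58.3%). Of all 32851 promoters of the same length, 19.6% hold ACGTG and 32.4% hold GCGTG. Members' windows are richer in GC, with a median of 62.0% against 52.7%, and among 8282 promoters within the members' middle range of GC the shares were 26.0% and 51.0%. ACGTG was in 8 of the 9 windows of the oxygen-sensing group. Their median GC was 69.0%, above the 61.3% of those 8282 promoters, so that background does not match this group. Many members are textbook HIF targets. The share was taken over all members with an entry, whatever their response to CHIR, and a link with that response was not tested.

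**Figure D5:**
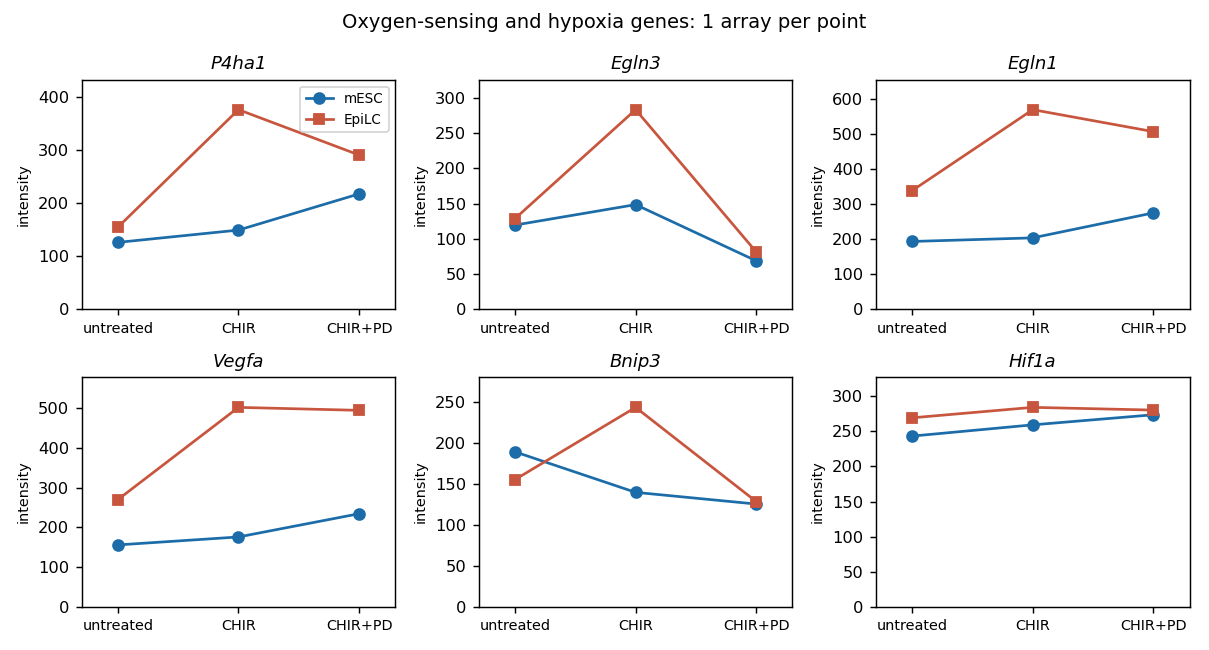
Intensity (linear axis from 0) of P4ha1, Egln3, Egln1, Vegfa, Bnip3 and Hif1a on each array, untreated, with CHIR and with CHIR and PD. Blue circles are mESC and red squares EpiLC, 1 array each. The EpiLC lines peak with CHIR, as for Egln3 at 283, and the line of Hif1a is nearly flat between 243 and 284.

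PD added to CHIR was read against the CHIR array of the same state, the array that also served in the comparison of CHIR with untreated cells. In mESC 0 of 31 members were 2-fold higher and 2 lower (Pdk1 and Egln3), beside 0.252% and 0.523% of all genes. In EpiLC 1 was 2-fold higher (Eno3) and 2 lower (Egln3 and Pfkp), beside 1.04% and 1.01%. The median member differed by 0.02 in mESC and by -0.22 in EpiLC, where 22 of 31 were lower, and the median gene by -0.01 and -0.02. Of all genes 52.5% were lower on the same EpiLC pair.

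Egln3 was lower with PD in both states, at 68.5 against 148 in mESC and 81.2 against 283 in EpiLC. The values with PD were also below those of untreated cells, 119 and 129. The limma fit gave -1.46 (SE 0.22), the largest difference of a member, but this did not pass (adjusted p = 0.444, range over the alternatives 0.273 to 0.885). The other EpiLC genes of the group did not follow as one. Bnip3 went from 244 to 129 and P4ha1 from 377 to 291, whereas Egln1 (569 and 506) and Vegfa (503 and 495) were close.

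Pdk1, a kinase that blocks pyruvate dehydrogenase and a known HIF target, was lower with PD in mESC. It read 139, 133 and 52.4 in mESC and 105, 90.2 and 90.3 in EpiLC. Its brighter probe read 570.4, 583 and 152 in mESC and 451, 339 and 295 in EpiLC, and the dimmer one, close to the lowest value of the arrays, 33.8, 30.3 and 18.1 and 24.2, 23.9 and 27.6. Both probes were lowest in mESC with both inhibitors, by -1.94 and -0.75 against CHIR alone. In EpiLC the mean over the probes was level between CHIR and CHIR with PD, and whether the states differ in this was not tested.

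Pfkp went from 384 to 161 in EpiLC with PD and from 1337 to 1238 in mESC. Eno3 went from 364 to 1374 in EpiLC and from 273 to 255 in mESC, the largest difference of any member in this comparison (1.92). The mesoderm markers moved between the same EpiLC arrays, from 10471.9 to 367 in sum, and the fibroblast markers from 705 to 1495, and their part in these differences was not tested. Of the 7 genes of upper glycolysis, 6 were lower with PD in EpiLC, with a median of -0.43, beside 52.5% of all genes. Among 10 genes of pyruvate entry, 3 were at least 1.5-fold lower there, beside 2.98% of all genes. They were the carboxylase gene Pcx (-0.81), the mitochondrial carrier gene Mpc1 (-0.61) and the phosphatase gene Pdp1 (-0.59). In mESC 0 of the 10 were 1.5-fold lower with PD, but the same genes were also lower there, Pcx by -0.48, Mpc1 by -0.25 and Pdp1 by -0.55. For Pdp1 the size was thus much alike in both states.

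Against untreated cells, both inhibitors together left 1 of 31 members 2-fold higher in mESC (Ldhb) and 1 lower (Pdk1), beside 0.618% and 0.848% of all genes. In EpiLC 4 were higher (Slc2a3, Eno3, Ldhb and Eno2) and 0 lower, beside 2.62% and 1.49%. Slc2a3 went from 882 through 1909 to 3569 in EpiLC and from 1994 through 2621 to 3542 in mESC, higher at each step in both states. Ldhb did likewise, from 354 through 612 to 747 and from 338 through 524 to 684. For Ldhb the responses were of like size, 1.08 and 1.02, and for Slc2a3 they were 2.02 and 0.83.

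The limma fit called no member in any of the 3 treatment comparisons. For CHIR against untreated 0 rose and 0 fell, as among all genes (0.0% each), and 9 of 31 members had an unadjusted p under 0.05, beside 7.27% of all genes. For PD added to CHIR 0 rose and 0 fell, beside 0.0% and 0.018%, and 7 members had an unadjusted p under 0.05, beside 5.77%. For both inhibitors against untreated 0 rose and 0 fell, beside 0.0% and 0.0271%, and 12 members had an unadjusted p under 0.05, beside 14.3%. With a trended and robust moderation limma called 0, 0 and 1 members in the 3 comparisons, the last being Ldhb, and with no moderation it called 0 in each.

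Of the members, Ldhb came closest under both inhibitors, with a difference of 1.05 (SE 0.12, limma adjusted p = 0.101, range over the alternatives 0.0452 to 0.478). Slc2a3 had 1.42 (SE 0.28, limma adjusted p = 0.162, range 0.123 to 0.552) and Eno2 had 0.80 (SE 0.16, limma adjusted p = 0.165). The 3 treatment comparisons share arrays with each other, so their values for a gene are not independent. The error of this fit grows where the states respond differently, as for P4ha1 and Slc2a3, and is small where they respond alike, as for Ldhb.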

How the data were processed

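Total RNA of 6 cultures was isolated with RNeasy columns and a DNase step and labelled with the WT PLUS kit for Mouse Gene 2.0 ST arrays, per the labels' protocols. The values are linear intensities that the authors deposited for 33793 probes, whose normalization method is not given in the sources used here, and GeneSpring GX 11.5 is named in the design text of the series. No build is given there either.

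Probes with 1 gene symbol (23521) were used, those with several (1814) or none listed (8458) were not. The mean log2 intensity per symbol was taken for 22180 genes, with no filter and no further scaling. State plus treatment, without interaction, was fitted with limma 3.58.1 in R 4.3.3 (lmFit, eBayes), with 2 residual degrees of freedom and Benjamini-Hochberg adjustment over all genes, two-sided, at 0.05. Pairs of arrays give sizes only. Precision is limited by 1 array per group. The error behind the p-values is the departure from additive effects between these arrays, moderated over all genes. That error need not be the spread between cultures.

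The members and lists were chosen with earlier results of these data known. Any measured member may be named. From each other list up to 4 genes with the largest difference are named after its counts, with exceptions. Of the other hypoxia targets, all past 1.5-fold with CHIR in EpiLC are named, and so are all formative markers. The alternatives were the lowest value of 16 replaced by 4 or 64, array centring, quantile normalization, dim genes left out, the brightest probe per gene, other moderation, state alone, a 1.5-fold mark and leaving out each treatment pair.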

Additional observations from a re-analysis of the deposited data

How the results depend on the processing

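Under 13 alternatives, 2433 of 2507 values of single genes kept their call status or stayed within the spread, and 14 fitted values, 0 of them called, changed sign. Median centring gave 0.0022 for Pdk1 between the states, 0.0185 for Pfkfb4 with CHIR, and 0.0005 for Slc16a1 and 0.0415 for Gapdh under both inhibitors (log2). Quantile normalization gave -0.0035 for Pkm between the states and -0.0058 with CHIR, and the brightest probe -0.0264 for Hif1a with CHIR. Without 1 treatment pair, the state difference ran from -0.4668 to 0.011 for Slc2a1, from -0.0024 to 0.0704 for Gapdh, from -0.316 to 0.0316 for Pgam1, from -0.485 to 0.1883 for Pdk1, from -0.0044 to 0.0511 for Pdha1 and from -0.1257 to 0.4175 for Bnip3. Among single-array values, 34 changed sign, each 0.12 or less in size as reported. The 37 single-array values that moved by more than the spread (SD 0.188) came from replacing the lowest value of 16 by 64 (23) or 4 (3) or from the brightest probe (11). The 45 recomputed single-array medians all stayed within the spread. No paired analysis was possible by replicate number, because the labels give none. The fit of state plus treatment already sets the states against each other within treatments, and state alone is the fit without that matching. Leaving out a treatment pair was run for the state comparison only and not for the treatment comparisons. For EpiLC against mESC, the 4 members that rose became 0 with no moderation, 8 with trended and robust moderation, 2 with state alone and 3 to 4 without 1 treatment pair. The 2 that fell became 0 with no moderation, 1 with state alone and 1 to 2 without 1 pair. State alone lost Pfkm, Vegfa and Hk1, and a constant of 4 lost Pfkm (limma adjusted p = 0.0551, range 0.0171 to 0.302). Among all genes, 921 rose (461 with a constant of 4, 0 with no moderation, 611 with state alone, 421 to 626 without 1 pair) and 920 fell (555, 0, and 524 to 676 without 1 pair). For PD added to CHIR, the 4 genes that fell became 1 with a constant of 64, 0 with no moderation and 7 with trended and robust moderation. For both inhibitors, trended and robust moderation gave 28 genes that rose, 1 of them a member (Ldhb), against 0, and 25 that fell against 6, which became 1 with either constant and 0 with no moderation. With a constant of 64, members at 2-fold went from 2 to 1 higher in untreated EpiLC against mESC, from 3 to 1 higher and 2 to 1 lower with CHIR and PD, from 2 to 0 lower for PD in mESC, from 1 to 0 higher and 1 to 0 lower for both inhibitors in mESC, and from 4 to 2 higher for both in EpiLC. Quantile normalization took the 1 member higher for both inhibitors in mESC to 0. A 1.5-fold mark gave, for EpiLC against mESC, 4 higher and 5 lower untreated, 10 and 2 with CHIR and 6 higher with CHIR and PD. It gave 1 higher for CHIR in mESC and 12 in EpiLC, 1 higher for PD in mESC, 2 higher and 4 lower for PD in EpiLC, 5 higher and 3 lower for both in mESC and 3 lower for both in EpiLC. Genes near the lowest value, such as Car9 and the dim probe of Pdk1, have compressed differences.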
